A study of Mus musculus with 6 samples.

Results

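The transcripts of 9 cathepsins and of cystatin C were examined in cultured mouse kidney fibroblasts with and without Th17 cells. The members were the rows of the deposited gene table with the symbols Ctsa, Ctsb, Ctsc, Ctsd, Ctsh, Ctsk, Ctsl, Ctss, Ctsz and Cst3, or 10 of 34745 genes. Each symbol occurred on a single row. Cathepsins are the proteases of the lysosome, the acidic compartment in which cells break down proteins that they take up or turn over. Cathepsins B, C, H, K, L, S and Z are cysteine proteases of the papain family, cathepsin D is an aspartic protease and cathepsin A is a serine carboxypeptidase. Cystatin C is a secreted protein that binds and blocks cysteine cathepsins outside the cell and within the secretory pathway. In fibroblasts these enzymes digest collagen that has been taken up, and a portion of them is released, where they can act on the matrix between cells.

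The fibroblasts were wild type (WT), grown out of digested mouse kidney, and were cultured either alone (3 libraries) or for 24 hours below a porous insert carrying Th17 cells (3 libraries). Th17 cells, the helper T cells that make interleukin-17, had been induced from spleen CD4+ T cells by antibodies to CD3 and CD28, a mixture of interleukins and a blocking antibody to interferon gamma. Only the fibroblasts below the insert were collected, and neither an empty insert nor other T cells is named for the fibroblasts cultured alone, so Th17 cells and the other parts of the coculture cannot be told apart. The study's methods name Balb/c mice and give no sort of the fibroblasts. Age is not given in the sources used here, and it is not stated whether libraries of a group came from separate cultures or animals, so the errors and p-values cover only the variation among these libraries.

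Total fragment counts ranged from 12050529 to 13209581 per library. The members together took 0.375% to 0.387% of all counts in the lone libraries and 0.387% to 0.412% in the cocultured libraries. All 12 genes of a fibroblast marker list were tested, with 9 lower and 1 higher after coculture, and their summed level went from between 36078 and 37936 CPM (read counts relative to the library total, scaled by TMM) to between 15962 and 17919 CPM. Col1a1, Col1a2 and Col3a1, chains of fibrillar collagen, held most of that sum, whereas Dcn, a small proteoglycan, was the gene that rose. Of 15 T cell and Th17 markers, 5 had no counts in any library (Cd3d, Cd2, Il17a, Il17f and Ccr6). Trac (20 to 41 counts per library) and Lck (23 to 68) were detected in both groups. Cd3e had 1, 1 and 0 counts alone and 0, 0 and 6 in cocultured replicates 1, 2 and 3. Il7r had 16, 7 and 20 counts alone and 0 in each cocultured library. Cd28 had 15, 8 and 9 counts alone and 6, 3 and 5 after coculture. The T cell list summed to 8.38 to 10.7 CPM alone and 5.03 to 6.02 CPM with Th17 cells. Cocultured replicate 3 stood apart from its group, with a chi-square per gene of 14.3 and 13.2 against cocultured replicates 1 and 2, beside 8.07 between those and 6.07 to 6.97 among the lone libraries. The lone cultures held a small amount of macrophage transcripts, described beside Ctss below.

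The comparison between the groups asked which cathepsin transcripts change in fibroblasts that share medium with Th17 cells. Coculture was accompanied by a near loss of Ctss, by modest increases in Ctsz, Ctsh, Ctsd and Ctsk and by small decreases in Ctsl and Ctsb. All 10 members passed the filter on low counts. By edgeR's quasi-likelihood test with an adjusted p below 0.05, 4 members were higher and 3 lower with Th17 cells, where 37.1% of all 13088 genes tested were called, 17.1% higher and 20.0% lower. Ctsa, Ctsc and Cst3 did not pass. Without cocultured replicate 3, the higher members numbered 4 and the lower members also 4, with Cst3 added. The study's methods add a limit on fold change. When a fold change above 2 was also required, no member was higher and 1 was lower, against a background of 3.87% and 7.78%. Lone and cocultured libraries were fully separated in CPM for 9 of the 10 members, Cst3 being the exception, beside 50.4% of all genes. The median log2 fold change of the members was 0.00 and that of all genes tested was 0.004, so the members moved in both directions around the centre of the table.

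**Figure D1:**
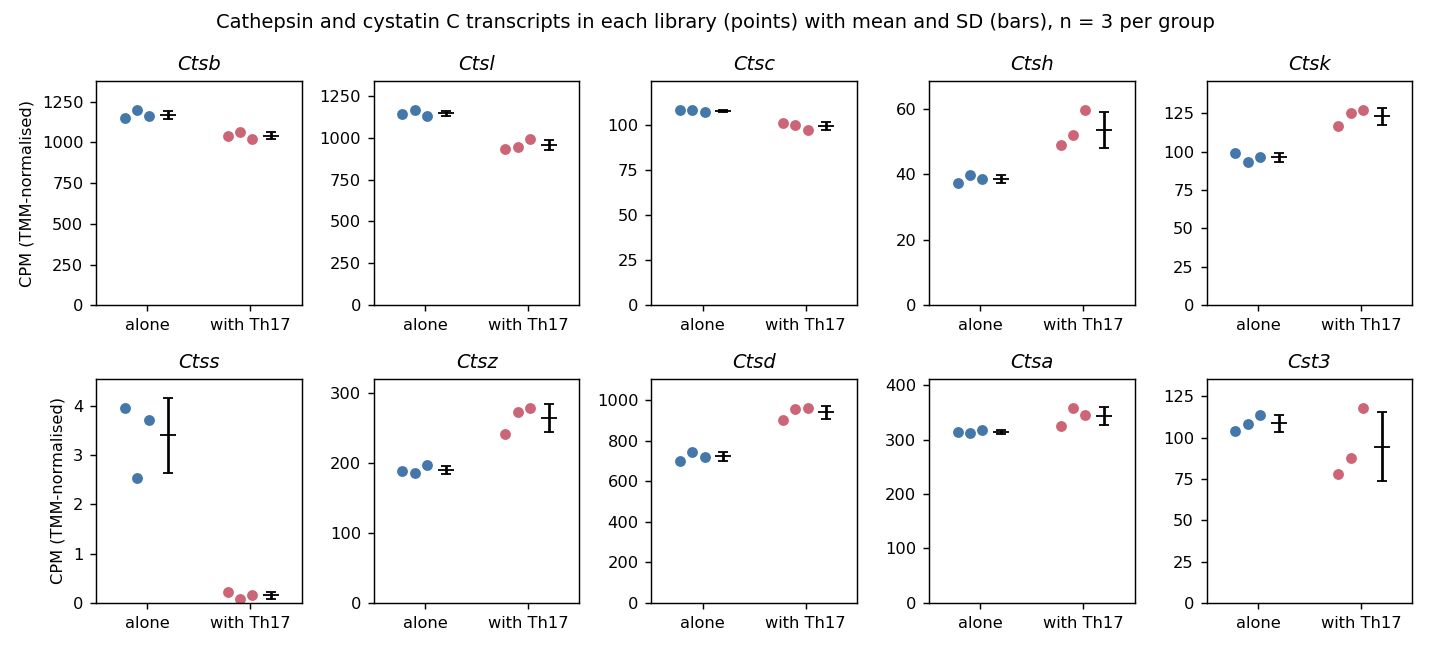
Expression of the 10 members in CPM on linear axes from 0, with a point for each library and the mean and SD of the 3 libraries of each group beside them (blue alone, red with Th17 cells). Ctss falls from between 2.53 and 3.96 CPM to at most 0.223 CPM, Ctsd, Ctsh, Ctsk and Ctsz lie higher in every cocultured library, and the groups overlap only for Cst3.

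Ctss showed the largest change of the 10 members. Cathepsin S is a protease that stays active at neutral pH, and it is best known for trimming the invariant chain of MHC class II in antigen-presenting cells. Ctss (ENSMUSG00000038642, chromosome 3, 95526786 to 95556403 on GRCm38, a protein-coding gene) reached 51, 32 and 44 counts alone but 3, 1 and 2 counts with Th17 cells. The transcript was therefore scarce in lone fibroblasts and close to undetected in every cocultured library, with a wide gap between the groups. Its level went from 3.40 ± 0.766 to 0.151 ± 0.0723 CPM (SD, n = 3 each). The pooled counts of 127 and 6 gave a ratio of 22.3 between lone and cocultured fibroblasts, with an exact 95% interval of 9.96 to 61.9 that covers counting error only. The fitted log2 fold change was −4.39 (edgeR adjusted p = 4.21e-05, SE 0.416), a fall in 3 of 3 libraries that ranked 93 by size among the 13088 genes.

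Macrophage transcripts moved with Ctss. Of 22 macrophage markers, 10 were tested, 9 were lower with Th17 cells and none was higher (median log2 fold change −2.65, or −2.16 with Adgre1 and Ptprc at their bounds). The 22 markers together went from between 73.0 and 79.5 CPM to between 21.3 and 22.9 CPM. Adgre1, which encodes the macrophage surface protein F4/80, had 71, 47 and 55 counts alone and 0 in each cocultured library, at least 19.6-fold lower. Ptprc, the gene of the white blood cell protein CD45, had 14, 12 and 11 counts alone and likewise 0 in each cocultured library, at least 4.19-fold lower. Both bounds rest on a floor of 3 counts per library. Lyz2, the gene of lysozyme and the most abundant marker of the list in lone cultures, fell from a mean of 27.6 ± 0.944 to 3.33 ± 0.392 CPM (SD, n = 3; log2 fold change −3.05, edgeR adjusted p = 2.07e-07, SE 0.127). Cd68, a lysosomal protein of phagocytes that fibroblasts also make, fell by 0.93 on the log2 scale, and Cd14 had the same mean of 11.2 CPM in both groups. Some markers of other cell types fell as well. Of 3 epithelial markers tested, Krt19 (log2 fold change −2.63) and Lrp2 (−2.36) were lower and Krt18 did not pass. Of 3 endothelial markers tested, Kdr was lower (−5.34), Flt1 was higher (1.31) and Pecam1 did not pass. Kdr had 65, 74 and 68 counts alone and 2, 1 and 2 after coculture. Fewer macrophages and less of a transcript per cell cannot be told apart in bulk RNA, and the part of macrophages in the fall of Ctss was not tested.

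**Figure D2:**
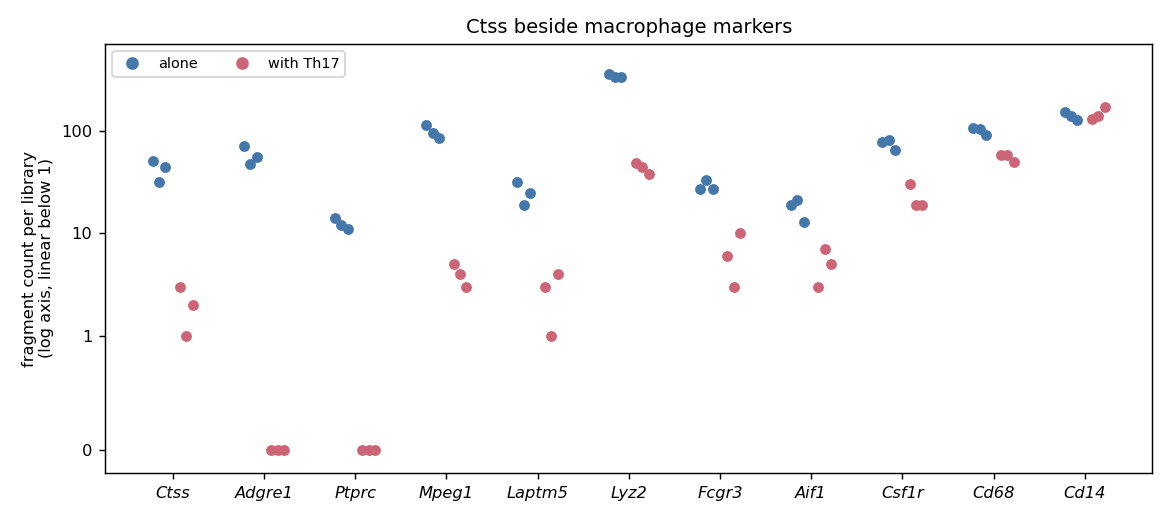
Fragment counts of Ctss and of the 10 macrophage markers that were tested, per library, on a log axis that is linear below 1 (blue alone, red with Th17 cells). Adgre1 and Ptprc are at 0 counts in all 3 cocultured libraries, Ctss is at 1 to 3 counts there, and Cd14 overlaps between the groups.

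The MHC class II pathway, in which cathepsins S and L act on the invariant chain, was detected in part. Of its 10 genes, 7 had no counts in any library, among them Ciita, the master activator of the pathway, and H2-Aa. Cd74, the gene of the invariant chain, had 13, 11 and 11 counts alone and 1, 2 and 0 counts after coculture, a ratio of 12.3 (exact 95% counting interval 3.87 to 62.4) in the pooled counts (log2 fold change −3.46, edgeR adjusted p = 0.00247, SE 0.636). H2-Ab1, a class II beta chain, was the most abundant of the 3 genes tested, with 168 to 185 counts alone and 141 to 151 after coculture. It was slightly lower (log2 fold change −0.36, edgeR adjusted p = 0.0398, SE 0.118), a call lost in 8 of 14 alternatives (adjusted p up to 0.141). H2-DMa, which helps to load peptides, rose from between 36 and 49 counts to between 81 and 95 (log2 fold change 0.95, edgeR adjusted p = 0.00462, SE 0.195). The 3 genes tested thus moved in both directions.

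Ctsk lies next to Ctss on chromosome 3 and moved the other way. The end of Ctsk and the start of Ctss are 17.4 kb apart on the same strand. Cathepsin K is a strong collagenase, first known from osteoclasts and also made by fibroblasts. Ctsk (ENSMUSG00000028111, chromosome 3, 95499256 to 95509362) was measured at 98.9, 93.3 and 96.5 CPM in lone fibroblasts and 117, 125 and 127 CPM after coculture. Every cocultured library was above every lone library. The increase was 1.28-fold (log2 fold change 0.36, edgeR adjusted p = 0.00207, SE 0.063), so that neighbouring genes of 1 protease family differed in direction.

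Promoter sequences were read from RefSeq for GRCm38.p6, in which 8 of the 10 members matched, all but Ctsb and Ctsh. The 250 bases before each annotated start were searched on both strands for CACGTG (the core of the element bound by TFEB and related factors at lysosomal genes, also bound by other E-box factors), GAAA repeated after a gap of 2 bases (the core of an interferon-stimulated response element), TTCNNNGAA (bound by STAT proteins) and TGANTCA (bound by AP-1). Over all 32851 windows in the table, 6.02% held CACGTG, 2.98% the interferon element, 7.02% TTCNNNGAA and 6.75% TGANTCA. Ctss held the interferon element once, beginning 21 bases before the start, and none of the other motifs. Ctsd held CACGTG at 245 and 98 bases before the start, Ctsl held it once at 236 bases, and Ctsa held it at 12 bases before the downstream of its annotated starts. Ctsc held TTCNNNGAA at 236 bases, and no match was found in the windows of Ctsk, Ctsz or Cst3. CACGTG thus occurred before a gene that rose (Ctsd) and before a gene that fell (Ctsl). No motif overlapped another in these windows. The starts are those of RefSeq. For Ctss this start coincides with the GENCODE start given for the gene, whereas for Ctsk, Ctsd and Ctsl it differs. The Ctsd window therefore lies largely within the GENCODE gene. The 4 windows that set these contrasts are printed 5′ to 3′ in the direction of transcription, with matches in capitals: Ctss (chr3:95526536-95526785, plus strand), its neighbour Ctsk (chr3:95498960-95499209, plus strand), Ctsd (chr7:142387828-142388077, minus strand) and Ctsl (chr13:64370521-64370770, minus strand).
Ctss: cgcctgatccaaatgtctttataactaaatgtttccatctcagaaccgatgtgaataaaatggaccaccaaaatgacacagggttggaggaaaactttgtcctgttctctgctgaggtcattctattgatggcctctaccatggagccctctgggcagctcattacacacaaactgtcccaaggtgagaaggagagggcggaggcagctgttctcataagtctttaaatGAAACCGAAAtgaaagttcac
Ctsk: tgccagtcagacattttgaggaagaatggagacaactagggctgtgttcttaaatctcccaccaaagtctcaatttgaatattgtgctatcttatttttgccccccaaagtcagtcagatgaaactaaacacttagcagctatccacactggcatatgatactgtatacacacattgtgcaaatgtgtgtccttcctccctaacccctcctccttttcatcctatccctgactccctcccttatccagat
Ctsd: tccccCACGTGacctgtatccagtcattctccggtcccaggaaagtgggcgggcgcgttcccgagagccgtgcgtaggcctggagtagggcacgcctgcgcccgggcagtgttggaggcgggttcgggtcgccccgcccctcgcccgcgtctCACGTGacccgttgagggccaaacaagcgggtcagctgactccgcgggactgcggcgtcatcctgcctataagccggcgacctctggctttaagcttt
Ctsl: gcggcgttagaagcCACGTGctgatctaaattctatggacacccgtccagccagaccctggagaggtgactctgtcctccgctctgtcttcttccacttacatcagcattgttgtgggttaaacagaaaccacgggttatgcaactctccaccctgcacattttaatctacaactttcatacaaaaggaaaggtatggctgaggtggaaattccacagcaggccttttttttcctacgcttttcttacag

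Cathepsins L and B, the endopeptidases that carry out much of lysosomal protein breakdown, decreased by small margins. Ctsl (ENSMUSG00000021477, chromosome 13, 64363214 to 64370306) was measured at 1140, 1164 and 1131 CPM alone and 934, 946 and 991 CPM after coculture. All cocultured libraries lay below all lone libraries. The fall was 16.5% (from 1145 ± 17.2 to 957 ± 30.1 CPM, SD, n = 3 in each group; log2 fold change −0.26, edgeR adjusted p = 0.00356, SE 0.051). Ctsb (ENSMUSG00000021939, chromosome 14, 63122462 to 63145919) was measured at 1148, 1198 and 1163 CPM alone and 1038, 1067 and 1021 CPM with Th17 cells. These groups did not overlap either, and the change was smaller still, at −0.17 on the log2 scale (edgeR adjusted p = 0.0276, SE 0.050). This call for Ctsb was lost with library size as the only scaling (adjusted p = 0.121), with limma on log2(FPKM + 1) (adjusted p = 0.130) and without lone replicate 2, lone replicate 3 or cocultured replicate 1 (edgeR adjusted p = 0.120, 0.0817 and 0.0659). Ctsb shares 774 exon bases with Fdft1 on the opposite strand, which had 574 to 645 counts per library beside at least 13421 for Ctsb.

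Cathepsins C, H and Z act mainly at the ends of peptides, and they differed in their response. Ctsz (ENSMUSG00000016256, chromosome 2, 174427493 to 174439039), a carboxypeptidase, was measured at 188, 185 and 196 CPM alone and 241, 272 and 278 CPM after coculture. Ctsh (ENSMUSG00000032359, chromosome 9, 90054152 to 90076089), an aminopeptidase, was measured at 37.5, 39.8 and 38.5 CPM alone and 49.1, 52.1 and 59.6 CPM after coculture. Both were higher in each cocultured library than in any lone library. They increased by a similar factor, 1.39-fold each, with log2 fold changes of 0.47 for Ctsz (edgeR adjusted p = 0.000658, SE 0.069) and 0.47 for Ctsh (edgeR adjusted p = 0.00293, SE 0.090). Ctsz shares 10 exon bases with Nelfcd on the opposite strand, which also rose (log2 fold change 0.54). Nelfcd had 278 to 457 counts per library beside at least 2323 for Ctsz. Ctsc (ENSMUSG00000030560, chromosome 7, 88278085 to 88310888), the dipeptidyl peptidase that activates granule proteases in white blood cells, was measured at 108, 108 and 107 CPM alone and 101, 100 and 96.8 CPM with Th17 cells. Its groups did not overlap, yet the difference was small and did not pass (log2 fold change −0.12, 95% interval −0.25 to 0.01, edgeR adjusted p = 0.148).

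Ctsd, the aspartic member, rose and Ctsa, the serine member, did not pass the test. Cathepsin D opens many lysosomal proteins to further digestion and helps to activate other cathepsins. Ctsd (ENSMUSG00000007891, chromosome 7, 142371148 to 142388038) was measured at 703, 747 and 721 CPM alone and 902, 957 and 963 CPM after coculture. The groups stood well apart, with means of 724 ± 22.2 and 941 ± 33.8 CPM (SD, n = 3 in each group; log2 fold change 0.38, edgeR adjusted p = 0.000603, SE 0.055). In the GENCODE annotation Ctsd shares 808 exon bases with Gm49369 on its own strand, and Gm49369 was not analysed here. Cathepsin A protects the lysosomal enzymes beta-galactosidase (Glb1) and neuraminidase 1 (Neu1) in a complex. Ctsa (ENSMUSG00000017760, chromosome 2, 164832873 to 164841032) was measured at 313, 312 and 318 CPM alone and 325, 358 and 346 CPM with Th17 cells. Although every cocultured value was higher, the log2 fold change of 0.13 did not pass (95% interval −0.01 to 0.26, edgeR adjusted p = 0.121). It passed with library size only (0.19, adjusted p = 0.0269) and with limma on log2(FPKM + 1) (0.18, adjusted p = 0.0294). Of its partners in the complex, Glb1 rose by a log2 change of 0.35 (edgeR adjusted p = 0.00407, SE 0.070) and Neu1 had −0.13 (edgeR adjusted p = 0.385, SE 0.107). Ctsa shares 495 exon bases with Pltp on the opposite strand, which had 83 to 182 counts per library and was lower after coculture (log2 fold change −1.04), beside at least 3765 counts for Ctsa.

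Cystatin C, the inhibitor, did not pass the test, and its value rested on single libraries. Cst3 (ENSMUSG00000027447, chromosome 2, 148871722 to 148875692) was measured at 104, 108 and 114 CPM alone and 77.8, 87.8 and 118 CPM with Th17 cells. Cocultured replicates 1 and 2 lay below all lone libraries and replicate 3 above them. The log2 fold change was −0.20 (95% interval −0.51 to 0.10, edgeR adjusted p = 0.275, SE 0.135). Without cocultured replicate 3 it was −0.39 (edgeR adjusted p = 0.00497), and without cocultured replicate 1 it was −0.08 (edgeR adjusted p = 0.657).

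**Figure D3:**
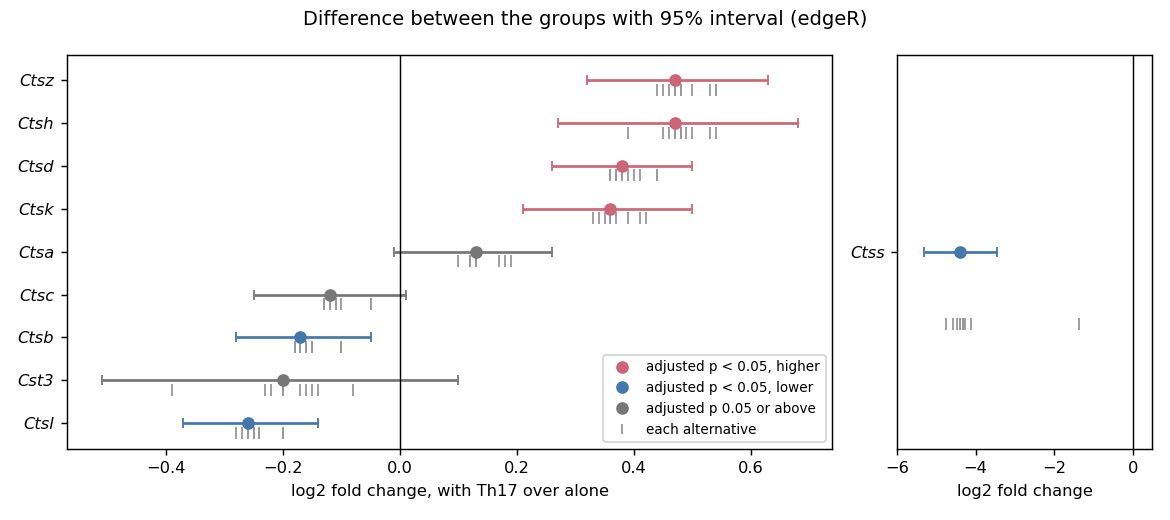
Log2 fold change of each member, with Th17 cells over alone, with its 95% interval from edgeR (points and bars) and the values under each alternative (grey ticks below), with Ctss in a panel of its own scale. Ctsz, Ctsh, Ctsd and Ctsk lie above 0 from 0.36 to 0.47, Ctsl and Ctsb lie below 0, and the intervals of Ctsa, Ctsc and Cst3 include 0.

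Levels were then compared between members on a scale per transcript length, in FPKM as the authors deposited them. In lone fibroblasts the order was Ctsl (568 ± 7.93 FPKM), Ctsb (241 ± 5.39), Ctsd (183 ± 5.76), Ctsz (129 ± 4.38), Ctsk (62.3 ± 1.79), Cst3 (53.4 ± 2.54), Ctsa (32.2 ± 0.456), Ctsc (15.6 ± 0.110), Ctsh (5.51 ± 0.172) and Ctss (1.85 ± 0.417 FPKM, SD, n = 3 each). No neighbours in this order overlapped. Ctsl stood at the 99.6th percentile of the FPKM of all genes tested and Ctsb at the 98.9th, whereas Ctss stood at the 30.0th, so the member that changed most was the scarcest. After coculture the order was the same except that Ctsd (248 ± 9.15 FPKM) passed Ctsb (225 ± 3.56 FPKM), again without overlap between neighbours, and Ctss stood at the 1.7th percentile.

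The order depends on the length behind the deposited values. The lengths implied by count and FPKM were those of the principal GENCODE transcript for Ctsb, Ctsk and Ctsz only. They were 4.24 times as long for Ctsh, 2.71 times for Ctsc, 2.61 times for Ctsa and 2.32 times for Cst3. For Ctsd the factor was 1.82, for Ctss 1.33 and for Ctsl 0.32. For Ctsa the implied length of 9533 bases exceeded the 8160 bases that the gene spans. With CPM per kilobase of the principal transcript, a scale added after the data had been seen, Ctsd led in both groups (a mean of 333 alone and 452 ± 16.7 with Th17 cells, SD, n = 3) and Ctsl was the third alone, at 182 ± 2.53. Ctss was the lowest member on both scales.

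The make-up of the cysteine cathepsins shifted with coculture. Summed over the 7 genes, their level was 1015 to 1033 FPKM alone and 981 to 1047 FPKM with Th17 cells, ranges that overlapped. On the scale of the principal transcript the sum was 675 to 686 alone and 701 to 750 with Th17 cells, without overlap. Both sums were scaled to library totals, without the TMM factors (0.9755 to 0.9816 alone and 1.0155 to 1.0287 with Th17 cells). Division by these factors raises every lone sum and lowers every cocultured sum. Each statement on overlap therefore holds for library totals only, and neither carries over to TMM scaling. Ctsl supplied 55.0% to 55.9% of the summed FPKM alone and 48.0% to 49.4% after coculture. Ctsz went from between 12.1% and 13.1% to between 17.4% and 18.9%. Ctsk went from between 5.84% and 6.29% to between 8.06% and 8.28%. Per kilobase of the principal transcript the shares of Ctsl were 26.3% to 26.9% alone and 21.2% to 22.1% after coculture. Those of Ctsz were 18.3% to 19.5% alone and 24.4% to 26.4% after coculture, so neither direction depended on the length used. Cst3 amounted to 5.02%, 5.14% and 5.47% of the summed cysteine cathepsins alone and to 4.07%, 4.41% and 5.80% after coculture, and these groups overlapped.

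**Figure D4:**
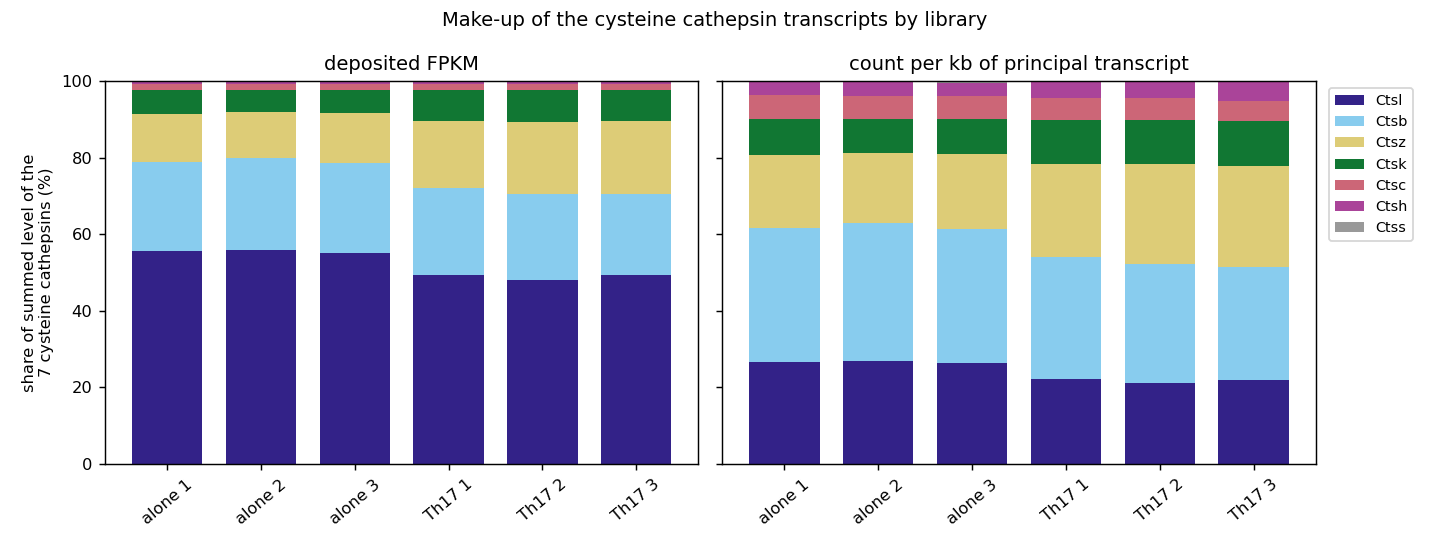
Share of each of the 7 cysteine cathepsins in their summed level, in percent, for each library, in deposited FPKM (left) and in CPM per kilobase of the principal transcript (right). In all 3 cocultured libraries the share of Ctsl is smaller and those of Ctsz and Ctsk are larger than in any lone library, on both scales.

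The other genes that make, move or restrain lysosomal proteases changed in both directions as well. Over all 13088 genes tested 17.1% were higher and 20.0% lower, so mixed directions are not particular to these lists. Of 14 further cathepsin genes, 11 had no counts in any library, among them the placental cathepsins that resemble Ctsl. Ctsf was the member of this list that passed (log2 fold change 0.36, edgeR adjusted p = 0.0492, SE 0.124), and Ctso, the other gene tested, had −0.22 (edgeR adjusted p = 0.245). The call for Ctsf was lost in 8 of 14 alternatives, including DESeq2 and each fit without 1 library except that without cocultured replicate 3 (adjusted p up to 0.163). Of 13 inhibitors and processing enzymes, 5 were tested, with 2 higher and 1 lower. Serpina3g, a serpin that inhibits cysteine cathepsins, rose from 41.6 ± 2.16 to 307 ± 29.2 CPM (SD, n = 3 in each group; log2 fold change 2.88, edgeR adjusted p = 4.56e-08, SE 0.088). Its count is uncertain because it belongs to a cluster of closely similar genes. Lgmn, the gene of legumain, which processes cathepsin precursors and is itself blocked by cystatin C, fell by 0.30 (edgeR adjusted p = 0.00312, SE 0.057), and Cstb, a cystatin of the cytosol, had −0.15 (edgeR adjusted p = 0.253, SE 0.098). Without cocultured replicate 3, 2 genes of this list were lower.

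Genes that tag hydrolases with mannose 6-phosphate and carry them to lysosomes were all 13 tested, with 2 higher and 3 lower (median 0.01). The shares over all genes tested were 17.1% higher and 20.0% lower. Gnptab, a subunit of the enzyme that adds the tag, rose by 0.51 (edgeR adjusted p = 0.0109, SE 0.125), whereas Gnptg, another subunit, fell by 0.48 (edgeR adjusted p = 0.0393, SE 0.157), a call lost in 7 of 14 alternatives. The Gnptab call was lost without lone replicate 1 (edgeR adjusted p = 0.0517). Without lone replicate 1, lone replicate 2 or cocultured replicate 1, only 1 gene of this list was higher. Of the receptors for the tag, M6pr fell by 0.30 (edgeR adjusted p = 0.00222, SE 0.055) and Igf2r had −0.16 (edgeR adjusted p = 0.0867, SE 0.067). Among 32 other soluble lysosomal enzymes and activators, 10 were higher and 8 lower (median 0.13). The lower genes numbered 5 without lone replicate 2 or lone replicate 3. They also numbered 5 with DESeq2, library size only, a replicate block or limma on log2(FPKM + 1). When single libraries were left out, the higher genes ranged from 7 (without lone replicate 1) to 13 (without cocultured replicate 3). Man2b1, a mannosidase, fell by 1.02 (edgeR adjusted p = 3.33e-06, SE 0.066) and Grn, the gene of progranulin, by 0.78 (edgeR adjusted p = 0.000671, SE 0.114). Pla2g15, a lysosomal phospholipase, rose by 0.81 (edgeR adjusted p = 6.19e-05, SE 0.082), and Psap, the precursor of the saposins, had 0.17 (edgeR adjusted p = 0.0633).

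Lysosomal membrane proteins and proton pump subunits, of which 28 of 29 were tested, held 9 higher and 3 lower genes (median 0.13). Of all genes tested, 17.1% were higher and 20.0% lower. The higher genes numbered 4 without lone replicate 1 and 5 without lone replicate 3, and the lower genes numbered 5 without cocultured replicate 3. Scarb2, the receptor that carries glucocerebrosidase to the lysosome, fell from 394 ± 10.4 to 196 ± 1.41 CPM (SD, n = 3 in each group; log2 fold change −1.01, edgeR adjusted p = 9.75e-07, SE 0.054). Atp6v0a1, a membrane subunit of the proton pump, rose by 1.12 (edgeR adjusted p = 1.47e-05, SE 0.091) and Atp6v1a, its catalytic subunit, by 0.47 (edgeR adjusted p = 0.000203, SE 0.057). Of 11 regulators of lysosomal genes, 5 were higher and 1 lower (median 0.18). The lower genes numbered 0 without lone replicate 2, lone replicate 3 or cocultured replicate 1, and 2 without lone replicate 1 or cocultured replicate 3. The highest was Rragd, a GTPase through which nutrients control TFEB and related factors (log2 fold change 1.51, edgeR adjusted p = 4.03e-05, SE 0.142), followed by Tfec (1.39, edgeR adjusted p = 0.00114, SE 0.223), a relative of TFEB. Tfeb itself had 18, 45 and 38 counts alone and 56, 61 and 57 counts after coculture and did not pass (0.71, edgeR adjusted p = 0.101, SE 0.304). With library size as the only scaling, the higher and lower genes numbered 4 and 2 for sorting, 13 and 5 for the enzymes and 10 and 2 for the membrane list.

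**Figure D5:**
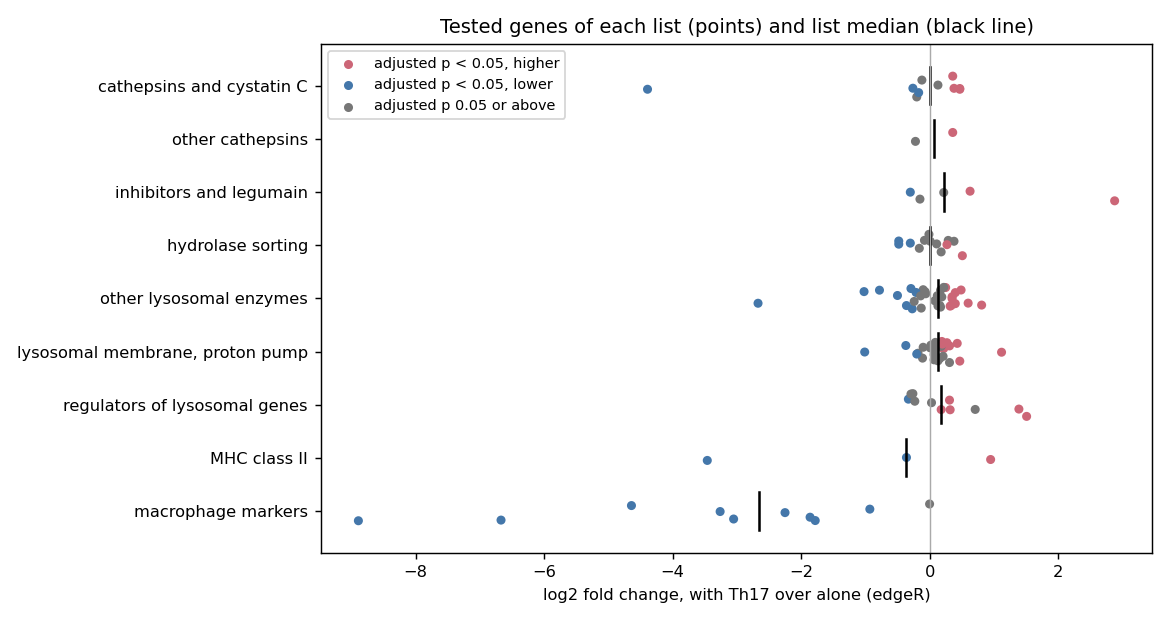
Log2 fold change from edgeR, with Th17 cells over alone, of every tested gene in the cathepsin and cystatin C set, in 7 lists of related genes and in the macrophage list, with a point per gene and a black line at each list's median. The medians of the sorting, enzyme, membrane and regulator lists lie between 0.01 and 0.18, and the macrophage median lies at −2.65.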

How the data were processed

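RNA from 3 libraries of fibroblasts cultured alone and 3 of fibroblasts cocultured with Th17 cells was sequenced on an Illumina NovaSeq after preparation with a VAHTS kit. Per the submitters' processing notes and the study's methods, the authors used Seqtk on the reads, mapped these to mm10 by HISAT2 2.0.4 and deposited raw fragment counts per gene with StringTie 1.3.3b. The authors also deposited FPKM, scaled to gene length and library total. The annotation release, the use of strand and the handling of fragments that fit several genes are not given in the sources used here.

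Samples were grouped by title and columns matched by description. Of the gene identifiers, 34267 occur in GENCODE M21 (GRCm38), and 99.9% of these overlap their position there. Counts of all rows entered the library totals. In R 4.3.3, edgeR 4.0.16 was run with filterByExpr (minimum count 10), TMM scaling, glmQLFit and glmQLFTest without a block, and Benjamini-Hochberg adjustment over 13088 genes. SE is the size of the log2 fold change over the square root of F, and 95% intervals use the t distribution with the fit's degrees of freedom. Floors of 3 counts cover counting error only. Alternatives used DESeq2 1.42.0 and limma 3.58.1. Tested on simulated counts for this comparison (12965 genes), edgeR recovered 96.1% of 103 genes changed 1 log2 unit and 100% of 97 changed 2, with 16 unchanged genes called. The changed genes all had a mean above 1 CPM, and a single dispersion was used for every gene. In the data 37.1% of genes were called, so these rates hold for the simulated settings only. No change below 1 log2 unit was simulated, so the recovery of changes as small as those of every member but Ctss was not tested. No library was a copy of another (chi-square per gene at least 6.07 within groups).

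The members and lists were chosen with earlier results of these data known. All members were named, with fixed genes of the companion lists (Lgmn, Cstb, Neu1, Glb1, Psap, Igf2r, M6pr, Tfeb, Cd74 and abundant markers) and at most 4 further genes per list, those with the largest changes among genes past the test without overlap and with a mean of at least 100 counts in a group. Other genes that are named were chosen after their values were seen. Epithelial markers (2 of 3 tested lower) and endothelial markers (1 higher and 1 lower of 3) were also counted. Figures were drawn with matplotlib 3.10.9.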

Additional observations from a re-analysis of the deposited data

How the results depend on the processing

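The 4 higher members (Ctsd, Ctsh, Ctsk and Ctsz) were called under each of the 14 alternatives to tool, scaling, filter, unit, block and libraries, and with library size only or limma on log2(FPKM + 1) Ctsa joined them, giving 5. The number of lower members ranged from 2 to 4 when single libraries were left out, with Cst3 added without cocultured replicate 3 and Ctsb lost in 3 of them. When a fold change above 2 was required, 0 members were higher and 1, Ctss, was lower. No member reversed its direction. Ctss was not tested with at least 10 counts in every library, and its log2 fold change was −1.38 with limma on log2(FPKM + 1), since the pseudocount shrinks low values. Same-numbered libraries did not deviate together (correlations of 0.026, −0.002 and −0.009 over 13009 genes). Pairing by number was thus not seen, although these values cannot exclude a weak pair effect. With a replicate block, 4 members were higher and 3 lower. The level of Cst3 as a percentage of the summed cysteine cathepsins was 18.1% alone and 15.4% cocultured on the principal transcript scale, beside 5.21% and 4.76% in FPKM, and this alternative was added after the data had been seen. Leaving libraries out, log2 fold changes ranged from −0.39 to −0.08 for Cst3, from 0.33 to 0.39 for Ctsk and from −4.76 to −4.11 for Ctss. For low-count members depth sets the limit, since 3 counts correspond to 0.223 to 0.254 CPM.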

Other observations

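The cytosolic inhibitor Cstb resembled Cst3 in its spread, a comparison chosen after the values were seen. Cstb was measured at 129, 121 and 127 CPM alone and 100, 108 and 131 CPM after coculture, so that, as for Cst3, cocultured replicates 1 and 2 lay below all lone libraries and replicate 3 above them. Cd63, a lysosomal membrane protein (504, 539 and 736 CPM in cocultured replicates 1, 2 and 3), and Atp6v1f, a proton pump subunit (38.3, 40.8 and 59.8 CPM), were also highest in cocultured replicate 3, the library that stood apart over all genes, whose part in these values was not tested.

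Acp5, the gene of tartrate-resistant acid phosphatase, which osteoclasts and macrophages make together with cathepsin K, had too few counts for the naming rule. It had 85, 66 and 69 counts alone and 10, 13 and 13 counts with Th17 cells (−2.67 on the log2 scale, edgeR adjusted p = 2.26e-05, SE 0.230), the opposite direction to Ctsk.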
